A study of Mus musculus with 8 samples.

Results

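Ribosomal protein genes encode the proteins that, with ribosomal RNA, form the large and the small subunit of the cytosolic ribosome. They were chosen here by symbol alone: Rpl or Rps followed by a number and its usual suffix, Rplp0 to Rplp2, and Rpsa, without the kinases whose symbols begin with Rps6k and without mitochondrial ribosomal proteins. Of 56575 features in the deposited table, 24338 of them with a symbol, 83 met the rule, 50 of the large and 33 of the small subunit, and no symbol was repeated. The table describes RNA sequencing of the hippocampus of C57BL/6 mice aged 8 weeks, with 4 libraries labelled WT (wild type) and 4 labelled Slm2KO. SLM2 is an RNA-binding splicing regulator encoded by Khdrbs3. The labels do not give the deleted part of the gene, the cells in which it is lost, the sex of the animals or any treatment. They also do not say that each library came from a separate animal, so a p-value measures the spread between these samples, which may be technical.

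Each ribosome carries a single copy of most of its proteins, and the genes for them are among the most strongly transcribed in any cell. Their mRNAs are short and begin with a run of pyrimidines, the TOP motif, through which mTOR signalling sets how many of them are translated. Mammalian genomes hold many processed pseudogenes of these genes, which arose by reverse transcription of the abundant mRNAs, and a few functional paralogs such as Rpl22l1, Rpl3l, Rpl39l and Rps27l. Neurons translate locally in dendrites and axons, and mRNAs of ribosomal proteins are found there.

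The libraries held 104020058 to 125985224 reads counted in features, recovered from the deposited values. All values below are normalised read counts, that is, reads divided by the size factor of the library and not by gene length unless stated. Khdrbs3, the targeted gene, had no lower value in any library labelled Slm2KO than in WT: it held 22051 ± 2387 normalised reads in WT and 29749 ± 3040 in Slm2KO (SD, n = 4 each), so directions below refer to the libraries by their labels. All 14 hippocampal neuron markers were measured and none was at 0 in any library. The summed choroid plexus and ependymal markers (15 of 15 measured) ranged from 345891 to 2462848 in WT and from 524956 to 3125179 in Slm2KO, carried by Ttr, the transthyretin transcript of choroid plexus, which was lowest in WT 2 and highest in Slm2KO 4. In whole tissue, fewer cells of a type and less RNA per cell cannot be told apart.

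The 83 genes together took about 1% of all normalised reads in every library, in both groups. Their sum was 0.960%, 0.931%, 1.01% and 0.987% in WT 1 to 4 and 0.996%, 0.943%, 1.03% and 0.985% in Slm2KO 1 to 4. WT 2 was the lowest and Slm2KO 3 the highest, and the groups overlapped. The means were 0.972% ± 0.0341 and 0.987% ± 0.0341 (SD, n = 4), a ratio of 1.02. Large subunit genes took 0.555% ± 0.0183 in WT and 0.562% ± 0.0197 in Slm2KO, and small subunit genes 0.417% ± 0.0159 and 0.425% ± 0.0150. The ratio of the small to the large subunit sum varied less than either sum: it was 0.752 ± 0.0045 in WT and 0.757 ± 0.0101 in Slm2KO (SD, n = 4), with the lowest value in Slm2KO 1 (0.745) and the highest in Slm2KO 4 (0.769).

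Levels of single members can be compared only per length, here per kilobase of annotated exon (union of exons, GENCODE vM21). On that scale the median was 12279.6 normalised reads per kilobase over the 33 small subunit genes. It was 8834 over 49 large subunit genes, Rpl39l left out. Rplp1, a protein of the acidic stalk that recruits elongation factors, stood highest at 99613 per kilobase, followed by Rps15 (60531), Rps21 (43978) and Rpl4 (41309), whose protein lines the exit tunnel. The lowest were the paralogs Rpl39l (7.66) and Rpl3l (30.7), and among the small subunit genes Rps13 (2244) and Rps4l (2807). This order depends on which exons are counted: with coding length in place of exon length, Rplp1, Rps15, Rpl39l and Rpl3l stayed at the extremes of their subunit and Rpl4, Rps21 and Rps13 did not. Rps4l, annotated as a processed pseudogene, has no annotated coding sequence and could not be ranked on that scale. Rpl41, Rps24, Rps27 and Rps27l were the other extremes by coding length. Between the second lowest and the third lowest member, Rpl3l and Rpl7l1 (1259.8 per kilobase), the level steps up sharply, while the remaining members form a gradual series.

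**Figure D1:**
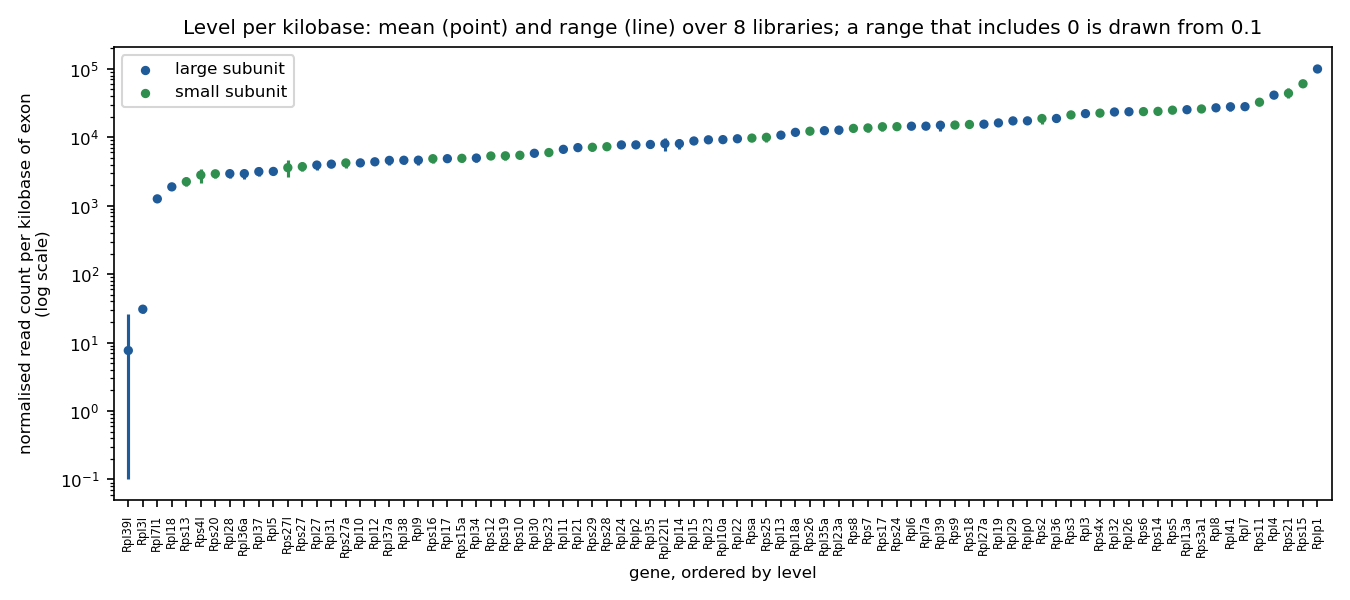
Normalised read count per kilobase of exon (log axis) for the 83 genes in order of level, with the mean (point) and range (line) over 8 libraries, blue for large and green for small subunit genes. Rpl39l and Rpl3l stand far below the rest, and Rplp1 stands highest at 99613.

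No ribosomal protein gene differed past the threshold between the genotype labels. Of 83 members, 82 passed the filter on low values (a mean of at least 10 over the 8 libraries), all but Rpl39l. None of the 82 reached an adjusted p of 0.05 in limma, against 1 of 25667 features tested (0.0039%). None reached it in edgeR (0.0039% of features) or DESeq2 (0.0469% of features) either. An unadjusted p under 0.05 in limma was reached by 2 members, both with positive differences, against 3.52% of features in either direction (1.7% higher and 1.82% lower in Slm2KO); edgeR and DESeq2 each gave 2 as well (3.8% and 3.68% of features). This count was not stable: it was 6 with a covariate for the number series of the sample names (200s or 300s), 0 without WT 2, 1 without Slm2KO 3 and 5 without WT 4. For no member were the 4 values of a group all above those of the other, against 2.5% of all features.

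The fitted differences were small and bounded. They ran from -0.22 for Rps4l to 0.26 for Rpl22l1 on the log2 scale, Slm2KO minus WT, with a median standard error of 0.064, against 0.126 over all features and 0.063 over the 3076 features whose mean lay within the interquartile range of the members' means. All 82 of the 95% intervals lay within 1.5-fold up or down, against 65.7% of all features, whose median standard error was larger. That share was not computed for the 3076 features of like abundance. The median difference was 0.04 for the 49 large subunit genes tested and 0.05 for the 33 small subunit genes, against -0.01 over all features. In the large subunit 37 differences were above 0 and 12 below, and in the small subunit 24 and 9.

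Together 61 of 82 members (74.4%) had a difference above 0, against 46.1% of all features. That count moved with the libraries: it was 50 without WT 2, in which members were lowest, and 48 without Slm2KO 3, in which they were highest, with a median over members of 0.01 in each case. The sample names carry numbers in the 200s or the 300s, with 2 libraries of each label in each series, and the labels do not say what the numbers stand for. Within the 200s, 74 of 82 members were above 0, with a median of 0.08. Within the 300s, 40 were above 0 and 42 below, with a median of -0.00312. The summed share was 0.931% to 0.996% in the 200s and 0.985% to 1.03% in the 300s, so the part of the number series in the count was not tested apart from these values.

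**Figure D2:**
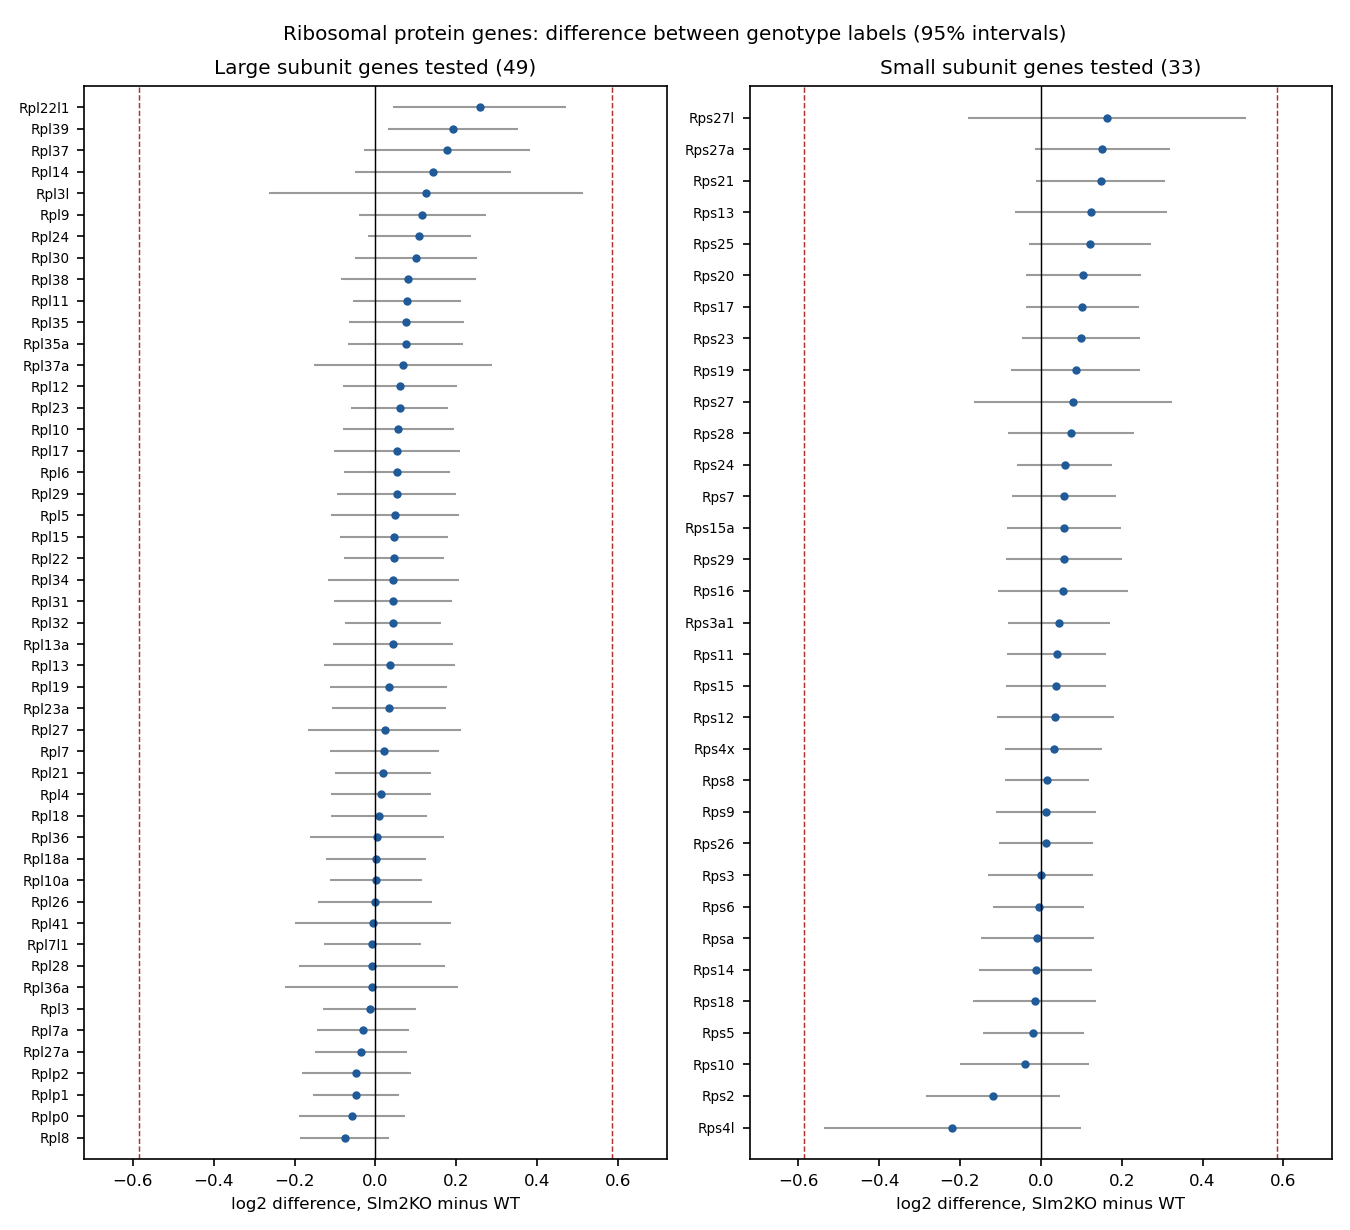
Log2 difference (Slm2KO minus WT) of each ribosomal protein gene tested, with its 95% interval from limma, for 49 large subunit genes (left) and 33 small subunit genes (right); dashed lines mark a change of 1.5-fold. Every interval lies between the dashed lines, and those of Rpl22l1 and Rpl39 are the ones that exclude 0.

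Rpl22l1 and Rpl39 had the smallest p-values among the members. Rpl22l1 (chromosome 3, 28805436 to 28807417, plus strand) is the paralog of Rpl22 and can replace it in the large subunit. It held 4150.1, 3489, 4399 and 4453 in WT 1 to 4 and 4600.4, 4376, 5453 and 5278 in Slm2KO 1 to 4. WT 2 was the lowest, Slm2KO 3 and Slm2KO 4 were the highest, and Slm2KO 2 lay just below WT 3 and WT 4, so the groups overlapped. The means were 4123 ± 443 and 4927 ± 519.6 (SD, n = 4), a fold of 1.20 (interval 1.03 to 1.39; log2 difference 0.26, SE 0.096), which did not pass (limma unadjusted p = 0.023, adjusted p = 1.00, exact permutation p = 0.0857). Its log2 difference was 0.24 within the 200s and 0.28 within the 300s, and it was 0.14 without the libraries lowest and highest in Ttr, WT 2 and Slm2KO 4.

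Rpl39 (chromosome X, 37082520 to 37085190, minus strand) encodes a very small ribosomal protein, which sits at the wall of the exit tunnel. It held 8526, 7678, 9190.1 and 8933 in WT 1 to 4 and 9330.2, 9103, 10666 and 10088 in Slm2KO 1 to 4. As for Rpl22l1, WT 2 was the lowest and Slm2KO 3 the highest, and the groups overlapped only in that Slm2KO 2 lay below WT 3. The means were 8582 ± 662 and 9797 ± 716 (SD, n = 4), a fold of 1.14 (interval 1.02 to 1.28; log2 difference 0.19, SE 0.072), which did not pass (limma unadjusted p = 0.0239, adjusted p = 1.00, exact permutation p = 0.0571). The difference was 0.19 within the 200s and 0.20 within the 300s, and 0.12 without WT 2 and Slm2KO 4.

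The next 6 members by p-value all had positive differences whose intervals included 0. Rps21, of the small subunit body, held 16027, 14884, 17342 and 17502 in WT 1 to 4 and 17349, 17578, 20390.0 and 17545 in Slm2KO 1 to 4. Slm2KO 3 stood above all other libraries and WT 2 below them, while the other 3 Slm2KO libraries lay close to WT 3 and WT 4 (log2 difference 0.15, SE 0.072; limma unadjusted p = 0.0669, exact permutation p = 0.0571). Rps27a, made as a fusion with ubiquitin and released by cleavage, held 3505, 3201, 3539.6 and 3930.0 in WT 1 to 4 and 3972, 3678, 4319 and 3774 in Slm2KO 1 to 4. Its groups overlapped through WT 4, which lay above Slm2KO 2 and Slm2KO 4 (log2 difference 0.15, SE 0.075). The differences were 0.18 for Rpl37 (SE 0.092), 0.11 for Rpl24 (SE 0.057), 0.12 for Rps25 (SE 0.068), whose protein contacts viral internal ribosome entry sites, and 0.11 for Rps20 (SE 0.063). Unadjusted p-values of these 6 in limma were 0.0669 to 0.127.

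The members with the most negative differences were Rps4l, Rps2 and Rpl8. Rps4l, set beside Rps4x here, is annotated in GENCODE vM21 as a transcribed processed pseudogene, without a coding sequence. It lies on chromosome 6 (148354655 to 148355598, plus strand), opposite to Tmtc1, whose feature held 3369.8 on average. The kit does not mark strand, so the reads of overlapping parts of Rps4l and Tmtc1 cannot be told apart. Rps4l held 2379, 2798, 2899.7 and 3265 in WT 1 to 4 and 2754, 1992, 3014 and 2077 in Slm2KO 1 to 4. Slm2KO 2 and Slm2KO 4 were the lowest, but Slm2KO 3 exceeded 3 of the 4 WT libraries (log2 difference -0.22, SE 0.143; limma unadjusted p = 0.157, exact permutation p = 0.257). Rps2, of the mRNA entry region, held 21237, 22319, 23132 and 23609.5 in WT 1 to 4 and 22675, 21525, 21306 and 17916 in Slm2KO 1 to 4, and its difference of -0.12 (SE 0.074) was -0.05 without Slm2KO 4, the lowest library. Rpl8, which lies close to the peptidyl transferase centre, held 28895 ± 879 and 27409.6 ± 1163 (SD, n = 4; log2 difference -0.08, SE 0.049; limma unadjusted p = 0.151).

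The stalk genes had slightly negative differences. Rplp0 anchors the stalk to the large subunit and Rplp1 and Rplp2 are its mobile arms. Rplp0 held 22609, 22966, 25849 and 25008 in WT 1 to 4 and 23107, 22926, 24482 and 21993 in Slm2KO 1 to 4. Rplp1 held 48283, 50019, 51796 and 52101 in WT 1 to 4 and 50120.3, 48098, 49658 and 47581 in Slm2KO 1 to 4. For both, WT 3 and WT 4 were the highest libraries and Slm2KO 4 the lowest, and the groups overlapped. The log2 differences of Rplp0, Rplp1 and Rplp2 were -0.06 (SE 0.059), -0.05 (SE 0.047) and -0.05 (SE 0.061), with limma unadjusted p-values of 0.330 to 0.449, and their intervals lay between 0.877-fold and 1.06-fold.

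Rps6, Rpl5, Rpl11 and Rpsa, whose proteins have known roles outside the ribosome, had log2 differences from -0.01 to 0.08, and none passed the threshold. Rps6, the substrate of the S6 kinases downstream of mTOR, held 20665, 20462, 20904 and 21454 in WT 1 to 4 and 20515, 19473, 22085 and 21183 in Slm2KO 1 to 4. The Slm2KO values span those of WT, and the interval of the fold was 0.922 to 1.08. Rpl5 and Rpl11, which with 5S ribosomal RNA bind Mdm2 and so link ribosome assembly to p53, had log2 differences of 0.05 (SE 0.071) and 0.08 (SE 0.060). Rpl5 held 7465 in Slm2KO 4 and 6097 to 6769 in the other 7 libraries, and its difference was -0.01 without Slm2KO 4. Fam69a, on the opposite strand of Rpl5, held 6339.7 normalised reads on average against 6482 for Rpl5, and with a kit that does not mark strand the reads of overlapping parts cannot be told apart. Rpsa, the laminin receptor precursor, had a difference of -0.01 (SE 0.063).

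The paralogs stood at very different levels relative to their partners. Rpl3, which helps shape the peptidyl transferase centre, held 722 times the level of its muscle paralog Rpl3l per kilobase, and Rpl7 held 22.3 times that of Rpl7l1 per kilobase of exon but 7.51 times per kilobase of coding sequence. Rps4x, the X-linked form, held 8.04 times the level per kilobase of exon of Rps4l, which is annotated as a processed pseudogene. Rpl3l held 43.1, 43.4, 52.6 and 48.8 in WT 1 to 4 and 48.1, 52.6, 57.0 and 47.4 in Slm2KO 1 to 4, and its groups overlapped. Rpl39, at 15015 normalised reads per kilobase, stood far above Rpl39l, a paralog known from testis. Rpl39l (chromosome 16, 10170225 to 10174911, plus strand) held 2.00, 1.81, 2.02 and 1.91 in WT 1 to 4 and 11.1, 10.5, 0 and 21.5 in Slm2KO 1 to 4, so the WT libraries each held 2 reads, Slm2KO 3 none and the other Slm2KO libraries more than 10 normalised reads. At such counts no fold is given, and Rpl39l was too low to be tested. Rpl10l was not analysed here, because no feature carried its symbol.

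Rpl22 and Rpl22l1 lay close to each other per kilobase of exon, at 9519 and 8066, while per kilobase of coding sequence Rpl22 held 4.14 times the level of Rpl22l1, since Rpl22 has the longer non-coding exons. Rpl22l1 per kilobase of exon was 68.8% to 82.7% of Rpl22 in the WT libraries and 81.0% to 99.5% in the Slm2KO libraries. Rpl22 itself held 18510.0, 18653, 19590.1 and 20641 in WT 1 to 4 and 19104, 19895, 21328 and 19529.5 in Slm2KO 1 to 4, a log2 difference of 0.05 (SE 0.055). Slm2KO 3 was the highest and WT 1 the lowest, with groups that overlapped.

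Rps27 and its p53-linked paralog Rps27l stood at similar levels, 3723 and 3601 per kilobase, a ratio of 1.03 by exon and by coding length. Rps27l (chromosome 9, 66946098 to 66949512, plus strand) had the largest spread over libraries of all members tested (SD of log2 values 0.264, against a median over members of 0.088). It held 1945, 1537, 2280.1 and 2099 in WT 1 to 4 and 2047, 1707, 2356 and 2736 in Slm2KO 1 to 4. WT 2 and Slm2KO 2 were the lowest and Slm2KO 4 the highest, with groups that overlapped (log2 difference 0.16, SE 0.154; limma unadjusted p = 0.313). As a percent of Rps27 per kilobase it ran from 81.2% to 137% over the libraries. Its difference was -0.06 without WT 2 and Slm2KO 4, the libraries lowest and highest in Ttr; whether choroid plexus content bears on Rps27l was not tested beyond these values.

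**Figure D3:**
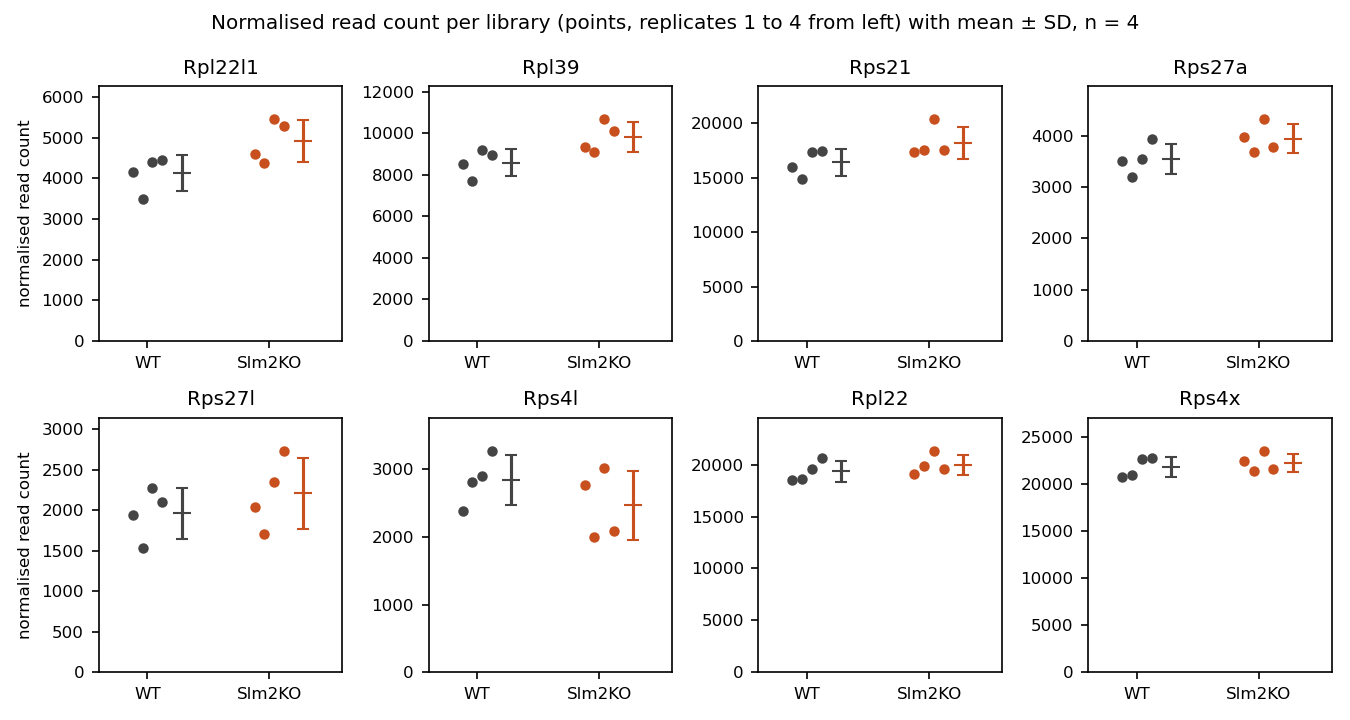
Normalised read counts of 8 ribosomal protein genes in each library (points, WT in grey, Slm2KO in orange) with the group mean ± SD (n = 4). The groups overlap in every panel; the Slm2KO mean of Rpl22l1 is 4927 against 4123 in WT.

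Across libraries the members moved together. Each member was set against its own mean over the 8 libraries on the log2 scale: 5 of 82 members lay above their mean in WT 2, 8 in WT 1, 14 in Slm2KO 2, 28 in Slm2KO 4, 60 in Slm2KO 1, 62 in WT 3, 72 in WT 4 and 79 in Slm2KO 3. Libraries of both labels thus stood at both ends. The median deviation ran from -0.11 in WT 2 to 0.10 in Slm2KO 3. Over the 3321 pairs of members the median Pearson correlation across the 8 libraries was 0.638, and 94.0% of pairs were above 0, whereas the median was 0.231 over the 3076 features within the interquartile range of the members' means. These values share library scaling and depth and are given as a description. The median was 0.642 between the subunits, 0.621 within the large and 0.648 within the small subunit, and with the group means removed the median was 0.690.

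A first component held 57.4% of the variance of the members, with WT 2 and Slm2KO 3 at its ends, and a second held 20.9% and set Slm2KO 4 apart. On the second, Rps4l, Rps2, Rps10, Rpl28, Rpl13 and Rpsa lay below their means in Slm2KO 4, by -0.33 for Rps4l and -0.27 for Rps2, while Rps27l, Rpl22l1, Rpl36a, Rps25, Rpl39 and Rpl5 lay above, by 0.41 for Rps27l and 0.23 for Rpl22l1. Slm2KO 4 was also the library with the most Ttr and with the lowest summed neuron, astrocyte, microglia and endothelial markers. It was not the lowest in oligodendrocyte, blood or meningeal markers. Whether tissue content bears on the second component was not tested. The members that followed the rest most closely were Rpl37a (correlation with the mean of the other members 0.989), Rps19 (0.986) and Rps3a1 (0.982). Those that followed it least were Rpl10 (-0.14), which joins the large subunit late in its assembly, Rpl36a (0.03), Rplp2 (0.12), Rps2 (0.19), Rpl5 (0.29) and Rpl8 (0.36). Rpl10 held 3901, 3631, 3971 and 3473 in WT 1 to 4 and 3713, 4142, 3819 and 3887 in Slm2KO 1 to 4, with Slm2KO 2 the highest and WT 4 the lowest.

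**Figure D4:**
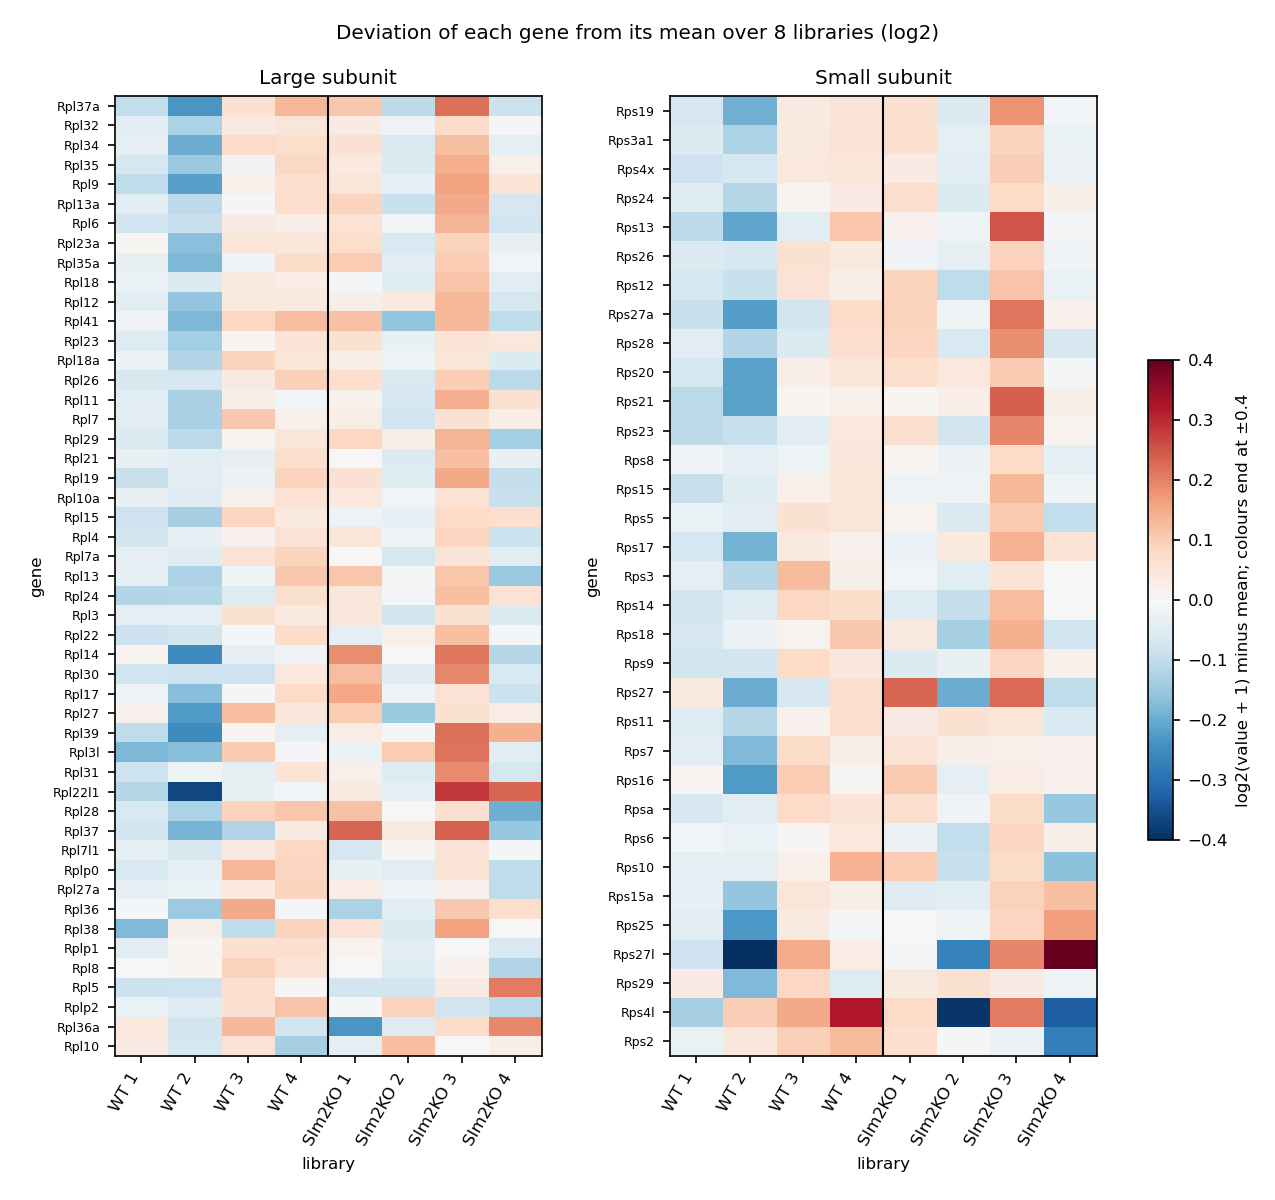
Deviation of each ribosomal protein gene from its own mean over 8 libraries, log2(value + 1), for large (left) and small (right) subunit genes, ordered from the gene that follows the family mean most closely to the one that follows it least; the vertical line separates WT from Slm2KO. WT 2 is mostly blue and Slm2KO 3 mostly red, while Slm2KO 4 is mixed.

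Other genes followed the same course. Among 17218 other named features tested, those whose log2 values correlated best with the mean of the members over the 8 libraries were Mafk, a small Maf transcription factor (0.982), Dazap2 (0.971), Unc50 (0.964), Gabarap, of autophagosome formation (0.960), and Sdhb, of succinate dehydrogenase (0.958). None of the 5 passed the threshold (0.0039% of features), with log2 differences of 0.02 to 0.05. With 8 libraries and this many features, high values are found for some features of any group, and the order is given as a description.

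Many members have annotated copies in the genome, some of them near-identical, which bears on what their counts hold. In GENCODE vM21, 583 annotated pseudogenes share at least 25% of the 30-base stretches of a member's coding sequence. They were found for 74 of the 82 members with a coding sequence, with 58 for Rpl21 alone. Only 15 of the pseudogenes coincide with a feature of the deposited table that is not itself a member, for 11 members. Rps4l, a processed pseudogene counted as a member, is not among these features, and reads it may share with Rps4x were not examined. The labels and the file do not state how reads that match a gene and its copy were counted, and such reads cannot be told apart. The 4 copies with the highest values are shown beside their genes over stretches of 60 coding bases, because the few bases that differ are what can tell their reads apart (5′ to 3′, GENCODE vM21 transcript and GRCm38 genome; capitals mark the bases that differ):
Rpl37, coding bases 211 to 270: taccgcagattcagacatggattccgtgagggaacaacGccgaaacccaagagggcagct
Rpl37rt, same stretch: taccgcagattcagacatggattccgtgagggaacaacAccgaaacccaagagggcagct
Rpl26, coding bases 121 to 180: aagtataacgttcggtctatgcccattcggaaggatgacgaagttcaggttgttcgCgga
Gm15772, same stretch: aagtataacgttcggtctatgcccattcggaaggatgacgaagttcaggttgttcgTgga
Rpl22l1, coding bases 91 to 150: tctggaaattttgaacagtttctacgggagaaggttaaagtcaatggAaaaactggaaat
Gm15421, same stretch: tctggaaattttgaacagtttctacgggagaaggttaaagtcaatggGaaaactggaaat
Rpl14, coding bases 391 to 450: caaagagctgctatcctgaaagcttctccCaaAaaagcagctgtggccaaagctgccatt
Rpl14-ps1, same stretch: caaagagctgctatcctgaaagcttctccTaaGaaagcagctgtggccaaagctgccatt
Over the whole coding sequence, aligned with gaps allowed, Rpl37rt differed from Rpl37 at 1 of 291 bases, Gm15772 from Rpl26 at 2 of 435 and Gm15421 from Rpl22l1 at 2 of 366. Rpl14-ps1 differed from Rpl14 by 4 substitutions and 3 missing bases in 651, and without gaps, where the bases past the missing ones fall out of step, at 127 positions.

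For 4 members the copy held more reads than the gene. The feature of Rpl14-ps1 (chromosome 7, 45324958 to 45325651) held 23156 ± 688 in WT and 23261 ± 1074 in Slm2KO, 2.59 to 3.32 times Rpl14 in the same library. Rpl37rt (chromosome 5, 115102922 to 115110268) held 22182 ± 1031 and 22642 ± 551, 7.40 to 9.57 times Rpl37. Gm15772 (chromosome 5, 3236385 to 3236909) held 1.09 to 1.44 times Rpl26, and Gm15421 (chromosome 5, 22528221 to 22529030) 1.26 to 1.43 times Rpl22l1. The levels of Rpl14, Rpl37, Rpl26 and Rpl22l1, and their places in the order per kilobase, therefore depend on where the counting put such reads.

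The differences between the labels were next read with each copy added to its gene. Gm15421 held 5509, 4500.2, 6298 and 5662 in WT 1 to 4 and 6304, 5828, 6859.5 and 7351 in Slm2KO 1 to 4, a course like that of Rpl22l1, with WT 2 the lowest and Slm2KO 3 and Slm2KO 4 the highest (log2 difference 0.27, SE 0.105; limma unadjusted p = 0.0291, adjusted p = 1.00, exact permutation p = 0.0571). Summed with its copy, Rpl22l1 had a difference of 0.26. Reads that match both cannot be told apart, so Gm15421 is not a separate measurement of the Rpl22l1 difference. For Rpl37 the difference was 0.18 alone and 0.05 with Rpl37rt added, and for Rpl14 it was 0.14 alone and 0.04 with Rpl14-ps1 added. For Rpl26 it was -0.00153 alone and 0.02 with Gm15772 added.

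Rps2-ps13, the copy of Rps2 on the X chromosome (52898588 to 52899511, plus strand), stood higher in the Slm2KO libraries, where Rps2 had a negative difference. It held 1345, 1316, 1568 and 1632 in WT 1 to 4 and 1875, 1847, 2446 and 1789 in Slm2KO 1 to 4, and each Slm2KO library lay above each WT library, as in 1.33% of all features (log2 difference 0.44, SE 0.112; limma unadjusted p = 0.00307, adjusted p = 1.00, exact permutation p = 0.0286, the smallest that 4 against 4 libraries can give). Rps2 had a difference of -0.12 alone and -0.08 with its 2 measured copies added (Rps2-ps13 and Gm10653, a copy at 5.87 normalised reads on average), and Rps2-ps13 held 0.0590 to 0.115 times its reads. Gm8624, on chromosome 11, is 1 of 11 annotated copies of Rps23 and the only 1 of them with a feature. It held 59.2 ± 5.87 in WT and 43.7 ± 8.30 in Slm2KO (SD, n = 4). Each Slm2KO library lay below each WT library, as in 1.17% of all features (log2 difference -0.44, SE 0.196, limma unadjusted p = 0.0476). Both copies were named after their values were seen.

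**Figure D5:**
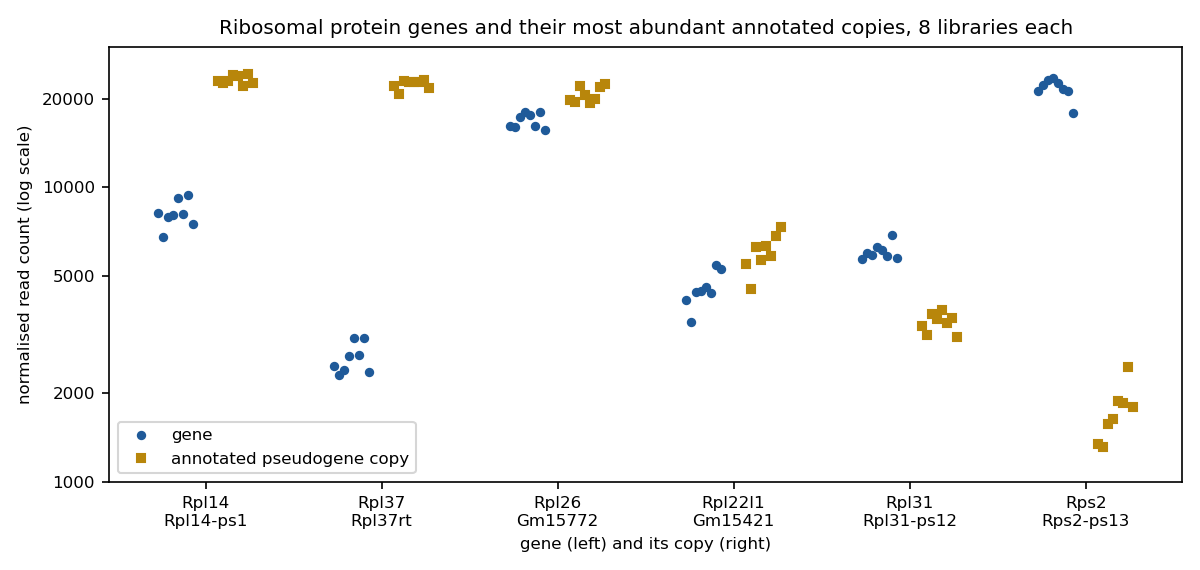
Normalised read count (log axis) of 6 ribosomal protein genes (circles) and their most abundant annotated pseudogene copies (squares) in the 8 libraries, WT 1 to 4 and then Slm2KO 1 to 4 from left to right. The copies of Rpl14 and Rpl37 lie at 20727 to 24337, above their genes, and the Slm2KO points of Rps2-ps13 all lie above its WT points, while those of Rps2 do not.

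The members' promoters were also searched for motifs. Whether a motif bears on how the genes move together across libraries was not tested. RefSeq (GRCm38.p6) gave 62 of the 83 members a window of 250 bases before to 50 after the start. The motif CCGGAAG, bound by ETS factors such as GABP, was found on either strand in 25 of 62 windows (40.3%), against 9.12% of 27025 promoters. TCTCGCG, which can form a palindrome with itself on the other strand, was found on either strand in 13 (21.0%, against 2.72%), CTTTCC, a pyrimidine run read on the sense strand, in 22 (35.5%, against 14.0%), AAGATGGC, bound by YY1, on either strand in 5 (8.06%, against 2.88%) and TATAAA on either strand in 6 (9.68%, against 14.2%). The first 3 motifs were thus commoner in these 62 windows together than in promoters at large. AAGATGGC and TATAAA rest on 5 and 6 windows, too few to read a difference. The promoters at large were not matched to the members for expression level. By subunit, CTTTCC was found in 17 of 38 large and 5 of 24 small subunit windows, CCGGAAG in 14 and 11, and TCTCGCG in 6 and 7. No motif contains another, while TCTCGCG can overlap its own reverse complement. Stretches from 15 bases before to 15 bases from the start show how close to it some of these lie (5′ to 3′ on the gene's strand; capitals mark the motif):
Rpl11, chr4:136053379-136053408, minus strand: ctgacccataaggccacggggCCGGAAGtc
Rpl31, chr1:39367836-39367865, plus strand: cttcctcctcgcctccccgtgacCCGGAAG
Rps3a1, chr3:86142654-86142683, minus strand: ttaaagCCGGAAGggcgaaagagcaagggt
Rps19, chr7:24884577-24884606, plus strand: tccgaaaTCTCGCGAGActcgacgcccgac
Rps28, chr17:33824548-33824577, minus strand: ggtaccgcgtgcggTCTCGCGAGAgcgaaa
Rpl15, chr14:18270972-18271001, minus strand: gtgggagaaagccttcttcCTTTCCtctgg
Rpl28, chr7:4792950-4792979, plus strand: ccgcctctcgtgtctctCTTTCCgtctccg
Rps10, chr17:27635230-27635259, minus strand: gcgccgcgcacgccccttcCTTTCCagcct
The first 3 carry CCGGAAG, Rps19 and Rps28 the palindromic form of TCTCGCG on both strands, and Rpl15, Rpl28 and Rps10 the pyrimidine run. The median log2 difference between the labels was 0.04 in 24 tested members with CCGGAAG and 0.05 in 37 without. A match is a run of letters, not a bound site.

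Genes that regulate or serve the ribosome showed no member past the threshold in limma (0.0039% of features). Of 52 genes of ribosome biogenesis and RNA polymerase I tested, 33 had differences above 0 and 19 below (median 0.02), and 4 had an unadjusted p under 0.05 with a positive difference (1.7% of features). Utp18, of the small subunit processome, held 3223, 3265, 3432 and 3208 in WT 1 to 4 and 3551, 3750.3, 3753 and 3631 in Slm2KO 1 to 4. Gnl3 (nucleostemin), a nucleolar GTPase, held 4048, 3985, 3928 and 4107 in WT 1 to 4 and 4509.8, 4413, 4529.8 and 4297 in Slm2KO 1 to 4. Taf1d, a subunit of the factor that brings RNA polymerase I to ribosomal DNA, held 1959.9, 2010.1, 2123 and 2029 in WT 1 to 4 and 2258, 2346, 2186 and 2242 in Slm2KO 1 to 4. In these 3 each Slm2KO library lay above each WT library, as in 1.33% of all features (log2 differences 0.16, 0.14 and 0.15; exact permutation p = 0.0286 for each, limma adjusted p = 1.00). The fourth, Utp14a, also of the processome and named after its values were seen, had a difference of 0.17 (SE 0.069) with groups that did not overlap.

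Among 34 mTOR and TOP mRNA regulators, 16 were above 0 and 18 below (median -0.00590), and Rps6ka1, a p90 S6 kinase, was the only one with an unadjusted p under 0.05 (1 of 34, against 3.52% of all features in either direction, a share near the background). It held 905, 870.4, 1001 and 893 in WT 1 to 4 and 811, 817, 810.4 and 738 in Slm2KO 1 to 4, with each Slm2KO library below each WT library, as in 1.17% of all features (log2 difference -0.21, SE 0.074; limma unadjusted p = 0.0188, exact permutation p = 0.0286). Akt1s1, which encodes the mTORC1 inhibitor PRAS40, was at -0.24 (SE 0.139) and Larp4 at 0.09 (SE 0.053). Of 36 initiation and elongation genes, 19 were above 0 and 17 below (median 0.00626), with Eif2s2, a subunit of the initiation factor that carries the initiator tRNA, at 0.10, the elongation factor kinase Eef2k at -0.09 and the release factor Etf1 at 0.08. Of 19 other TOP mRNAs, 7 were above 0 and 12 below (median -0.03), with Eif3e at 0.10, Btf3 at 0.12 and Vim at -0.18.

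Of 11 snoRNA host genes measured, 8 were above 0 and 3 below (median 0.04), with Snhg4 at 0.13, Snhg11 at 0.13 and Snhg3 at 0.11. Of 15 p53 targets that respond to ribosome stress, 4 were above 0 and 11 below (median -0.04), with Gadd45a at -0.17 (SE 0.088), Phlda3 at -0.11 (SE 0.093) and Bbc3 at -0.14 (SE 0.125). Ribosomal proteins outside the symbol rule lay near 0, with Gnb2l1, which encodes RACK1, at -0.03 (SE 0.057) and Fau, whose product is cleaved to a small subunit protein, at 0.03 (SE 0.067). None of these had an unadjusted p under 0.05.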

How the data were processed

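Hippocampal RNA was made into libraries with an Illumina TruSeq kit that keeps no strand information, per the labels' protocols. The deposited table gives 1 signal value per feature and library, a read count divided by 1 DESeq size factor, per the submitters' processing notes. These notes also name FastQC, Picard and SAMtools and list hg19, whereas the file header states mm10, which is used here. The aligner and counting program are not given in the sources here.

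Differences (Slm2KO minus WT) were fitted with limma 3.58.1 (R 4.3.3), with an intensity trend, on log2(value + 1), a scale that understates changes of low genes, for the 25667 features with a mean of at least 10. Benjamini-Hochberg adjustment covered all of them, with a threshold of 0.05. Single genes had two-sided exact permutation tests. Intervals are 95% intervals from limma. Whole reads were recovered from the values (100% whole within 0.001 of a read) for edgeR 4.0.16 and DESeq2 1.42.0. In WT 1, whose size factor is 0.999, the step could not be told from rounding. No pair of libraries within a group agreed within counting noise over the members (chi-square per degree of freedom 7.10 to 43.1). Sums, counts of members and correlations carry no test.

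Exon lengths and pseudogenes came from GENCODE vM21. A pseudogene was matched to a table feature where they overlapped by at least 50% both ways. Promoters came from RefSeq. The promoter motifs were chosen with results known, and TCTCGCG replaced a longer palindrome that contains it after the matches of the longer form, which were fewer in the members and in all promoters, had been seen. Tables were read with Python 3.11.15 and figures drawn with matplotlib 3.10.9.

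The members and lists were chosen with earlier results of these data known. Named by rule were Khdrbs3, the 8 members with the smallest p, the 2 highest and the 2 lowest per kilobase in each subunit, the paralog pairs, the stalk genes, Rps6, Rpl5, Rpl11, Rpsa, the 3 members with the largest spread, 3 genes per translation list and the 5 most similar genes. Other members and the copies were named after their values were seen. Alternatives changed the pseudocount (0.5 or 10), the filter (none, or a mean of 50), the scaling (TMM or quantile), the trend (left out), the model (replicate block, or number series as a covariate), the test (edgeR or DESeq2) and the libraries (each left out). Others were coding length, mitochondrial features left out of the total, and copies added to the sum. Leaving out both Ttr extremes and adding each copy to its gene were chosen after seeing the data.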

Additional observations from a re-analysis of the deposited data

Results flagged for a closer look

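In groups of 4 libraries, a library was singled out where its gap to the nearest other library, divided by the range of the group, exceeded Dixon's 95% critical value. Of 62 groups tested, 3 met this, a share near the 1 in 20 that chance gives, and the groups are not independent, because members moved together. All 3 concern Slm2KO 3, in which 79 of 82 tested members lay above their own mean over the 8 libraries. In it, Rps21 held 20390.0 normalised reads, against 17349 to 17578 in the other Slm2KO libraries. Rps15, of the decoding side of the small subunit, held 41786, against 37564 to 37622. Rps13 held 3686, against 3056 to 3131. Without Slm2KO 3 the log2 differences of these genes were 0.09, -0.000871 and 0.06, against 0.15, 0.04 and 0.12 with it.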

How the results depend on the processing

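In all 12 model alternatives and with each of the 8 libraries left out, 0 members passed the threshold, and the smallest adjusted p of any member was 0.770. Members with an unadjusted p under 0.05, 2 in the report, numbered 4 with quantile normalisation, 1 in limma without the trend, 6 with the number series as a covariate, 1 without the Ttr extremes, and 0 (without WT 2) to 5 (without WT 4) with single libraries left out. Features past the threshold, 1 in the report, numbered 2 with a pseudocount of 10, 0 without the trend, 9 with DESeq2 and 0 to 2 with single libraries left out. DESeq2 called Khdrbs3 higher (adjusted p = 0.0191; over all its alternatives the log2 difference stayed positive), the only named gene called in any alternative. The count of members above 0 ran from 48 to 70 with single libraries left out, and the median log2 difference from 0.00618 to 0.07 in the large and from 0.01 to 0.07 in the small subunit.

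The summed share in WT and Slm2KO was 1.10% and 1.12% without mitochondrial features and 1.04% and 1.06% with copies added, with 0.959% to 0.986% and 0.974% to 1.00% when single libraries were left out and a ratio of 1.00 to 1.03. With coding length, 4 of the 8 extremes per kilobase stayed, 3 did not, and Rps4l, with no coding length, could not be ranked.

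Small differences changed sign. Without both Ttr extremes the values were Rpl5 at -0.0318, Rpl7 at -0.0227, Rps27l at -0.0589, Rpsa at 0.0227, Bbc3 at 0.0155, Gm15772 at -0.0322 and Rpl26 at 0.0114. Quantile normalisation put Rpl14-ps1 at -0.000126 and Rpl36a at 0.00717, and DESeq2 put Rpl26 at 0.000586. With its copy added, and without DESeq2, the difference of the mean log2 values of Rpl26 was 0.0154. With single libraries left out, log2 differences ran from -0.0366 to 0.00820 for Rpl3, -0.0113 to 0.0458 for Rpl4, -0.0126 to 0.0806 for Rpl5, -0.0174 to 0.0618 for Rpl7, -0.0303 to 0.0178 for Rpl7l1, -0.000871 to 0.0593 for Rps15, -0.0343 to 0.0263 for Rps6, -0.0353 to 0.0396 for Rpsa, -0.0240 to 0.0646 for Fau, -0.0163 to 0.0309 for Rpl14-ps1, -0.00177 to 0.0487 for Rpl37rt, -0.00996 to 0.0650 for Gm15772, -0.0297 to 0.0718 for Rpl31-ps12, -0.0343 to 0.0341 for Rpl26, -0.0120 to 0.0745 for Rpl31 and -0.0750 to 0.0658 for Rpl36a. The causes were not tested.

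Replicate numbers are shared between the labels, but same-numbered libraries deviated with correlations of 0.124, 0.323, -0.0654 and -0.122, not over 0.1 in every pair, and of the WT libraries only WT 2 correlated best with the Slm2KO library of its own number. With the replicate number as a block, 0 members passed, 3 had an unadjusted p under 0.05 and 61 lay above 0. At 104020058 or more reads counted in features per library, Rpl39l was too low to be tested. Rpl3l had a spread within groups of 0.648 times its counting error, while in the other 81 members tested the spread was over the counting error.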
